A study of Rattus norvegicus with 10 samples.

Results

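The 10 hippocampal RNA libraries of this rat brain injury study fell into 2 sets by a single transcript of the choroid plexus. They were grouped by their transthyretin (Ttr) level: 6 of the 10 libraries stood above 1000 FPKM (sham 2, sham 3, TBI 1, TBI 3, TBI 4 and TBI 5) and are called choroid plexus rich here, and 4 stood below it (sham 1, sham 4, sham 5 and TBI 2) and are called poor. FPKM counts sequenced fragments relative to the length of the transcript and to the size of the library. All libraries came from male Sprague-Dawley rats, without any genetic change named in the labels. The 5 TBI libraries followed a traumatic brain injury made by fluid percussion, in which a pulse of fluid strikes the brain surface, and the 5 sham libraries followed sham surgery. In both groups the rats took a learning test 1 week after surgery and the dissected tissue was then frozen, so all libraries share surgery, testing and time. The labels do not say outright that each library is a separate animal, so the p-values below measure the spread between these libraries, which may be technical. Because the libraries were selected on a value of the same table, differences between rich and poor libraries are descriptions and not tests. The injury labels did not enter the choice, so differences between TBI and sham are tests. The exception is Ttr itself where the split is held as a covariate, because Ttr defines the split.

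The choroid plexus is a frond of vascular tissue inside the brain ventricles, covered by a cuboidal epithelium that secretes cerebrospinal fluid. Its epithelial cells make transthyretin, a carrier of thyroid hormone and of the retinol binding protein, and they move ions and water through a set of channels and transporters. In the rat it lies along the fimbria of the hippocampus in the lateral ventricle, so a dissected hippocampus can carry more or less of it.

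The marker that split the libraries had a wide gap between the sets. In the poor libraries Ttr stood at 34.5 FPKM in sham 1, 56.2 in sham 4, 72.7 in TBI 2 and 421 in sham 5. In the rich libraries it stood at 9079 FPKM in TBI 3, 9405 in sham 3, 11836.5 in TBI 4, 17770.5 in TBI 5, 31400.2 in sham 2 and 32233 in TBI 1. The member just inside the threshold was thus 21.5-fold above the one just outside it, no library lay near 1000 FPKM, and the whole range was 933-fold. Ttr took 1.52% to 5.78% of the summed FPKM of a rich library and 0.0055% to 0.0769% of a poor one. The 4 other markers separated the same libraries. Klotho (Kl), a membrane protein and hormone of phosphate and mineral balance, ran from 21.8 to 72.8 FPKM in rich libraries and from 0.0862 to 1.27 in poor ones. Clic6, a chloride channel family member of the epithelium, ran from 50.7 to 164 against 0.806 to 3.04. Enpp2, the secreted enzyme autotaxin, which makes lysophosphatidic acid, ran from 427 to 1226 against 50.8 to 64.1. Aqp1, the water channel of the apical membrane, ran from 18.2 to 80.1 against 0.0445 to 4.11. No rich library overlapped a poor one for any of these 4 markers. For Ttr that order was fixed by the rule, so the label was checked on the other 4 alone, as a description.

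**Figure D1:**
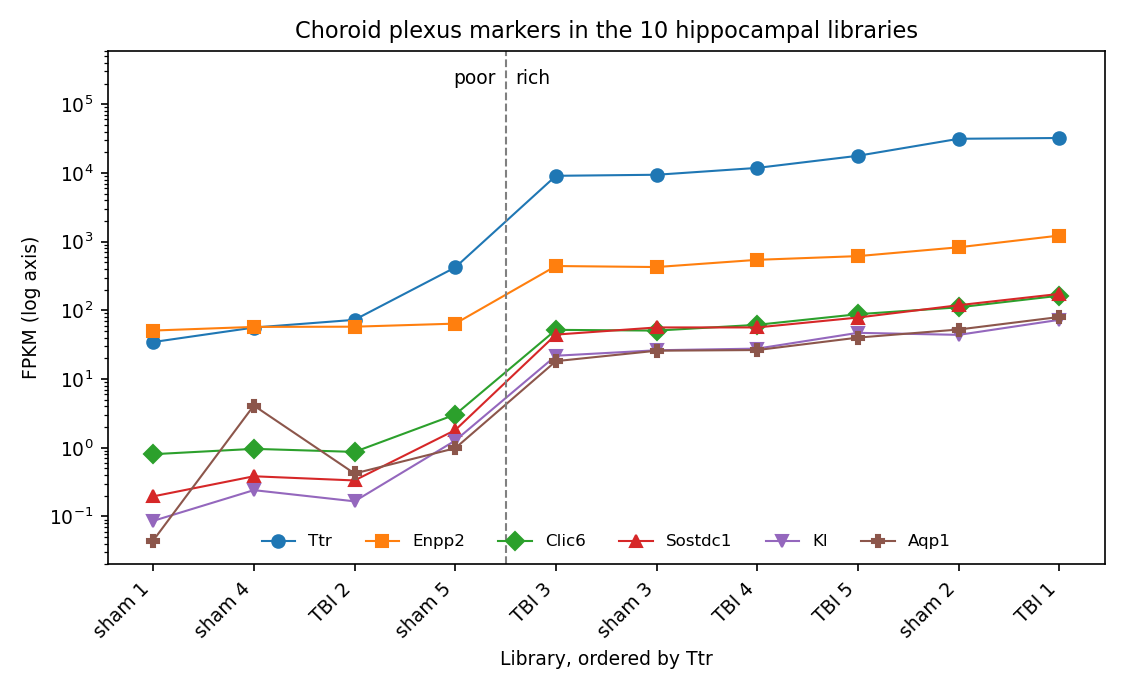
FPKM of Ttr and 5 other choroid plexus genes (log axis) in each of the 10 libraries, ordered by Ttr, with a dashed line between the 4 poor and the 6 rich libraries. All 6 genes are highest in TBI 1. Sham 5 leads the poor libraries for Ttr, Kl, Sostdc1, Clic6 and Enpp2, and Aqp1 alone is highest among them in sham 4, at 4.11 FPKM.

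The labelled tissue was present in every library. Slc17a7, the vesicular glutamate transporter of cortical and hippocampal excitatory neurons, stood at 552 to 1078 FPKM, and Neurod6, a transcription factor of pyramidal neurons, at 43.9 to 143. Prox1, which marks granule neurons of the dentate gyrus, stood at 5.28 to 17.8 FPKM, and Wfs1, which marks pyramidal neurons of CA1, at 64.0 to 265. The lowest Slc17a7 and Neurod6 were in TBI 1, the library with the most Ttr. The 75th percentile of FPKM was 13.1 to 13.5 in all libraries, while read depth is unknown, since only FPKM values are at hand. Of the 25269 loci in the table, 16889 had a mean of at least 0.5 FPKM and were compared. All of these are bulk samples, in which fewer cells of a type and less RNA per cell cannot be told apart.

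The rich libraries included more TBI than sham libraries, a difference that was not detectable with 10 libraries. Of the sham libraries 2 of 5 were rich and of the TBI libraries 4 of 5 were rich (two-sided Fisher exact test, p = 0.524). Injury was therefore kept as a covariate in the limma fits of content, apart from alternatives named as such. Correlations with Ttr, ratios, overlap counts and list scores carry no injury term.

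With injury as covariate, 101 loci were higher in rich libraries past an adjusted p of 0.05 in limma, which is 0.598% of the loci compared. No locus was lower past that threshold (0%). It serves here only to cut a list from a contrast that chose the libraries. Of the 101 loci 75 carry a gene name. The differences ran from 0.59 to 7.61 on the log2(FPKM + 0.5) scale with a median of 2.41, beside a median of -0.02 over all loci. Before adjustment 667 loci were higher and 239 lower at a p under 0.05 in limma, where chance alone would give about 844 in both directions together. The smallest adjusted p of a lower locus in limma was 0.0646. Every rich library stood above every poor one for all 101 loci, for Ttr by the rule. Over all loci that order was found for 444 in the higher direction (2.63%) and 77 in the lower (0.456%). The ratio of the rich to the poor mean was over 16-fold for 46 of the 101, 4- to 16-fold for 40 and at most 4-fold for 15. The count hung on single libraries: it was 19 without TBI 2, the only poor TBI library, 34 without sham 2, 53 without sham 1 and 61 without TBI 5, against 145 without TBI 1. The difference itself stayed above 0 for all 101 loci in each of these fits, as it did within the sham libraries alone and within the TBI libraries alone. That sign was fixed in advance, because no rich library overlapped a poor one at these loci.

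**Figure D2:**
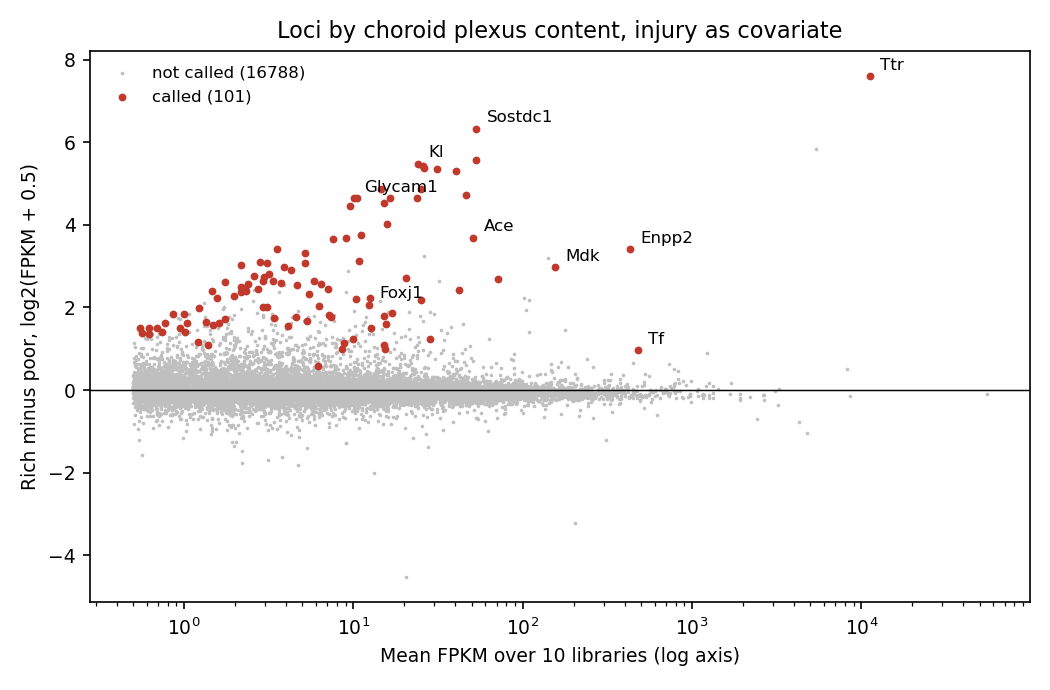
Rich minus poor difference on the log2(FPKM + 0.5) scale against mean FPKM (log axis) for the loci compared, with the 101 called loci in red. All called loci lie above 0, from Mansc1 at 0.59 to Ttr at 7.61, and the bulk of the grey points lies along 0.

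Genes of secretion and hormone response held the largest differences. Of 24 genes on that list 23 were compared and 11 were called higher, beside 0.598% of all loci. None was called lower, as over all loci, and the list's median difference was 3.01. Ttr, which defined the split, is on the list and among the 11, so its part in the count and the median was fixed by the rule. Sostdc1, a secreted antagonist of BMP and Wnt signalling, stood at 0.196 FPKM in sham 1, 0.385 in sham 4, 0.334 in TBI 2 and 1.81 in sham 5. In rich libraries it had a lowest value of 44.3, a median of 67.5 and a highest of 174 FPKM, a difference of 6.33 (SE 0.49). Kl differed by 5.48 (SE 0.44) and F5, coagulation factor V, by 5.43 (SE 0.38). Tmem72, a membrane protein of choroid plexus and kidney, differed by 4.66 (SE 0.36). The locus that names the folate receptors Folr1 and Folr2 together stood at 1.99 to 3.38 FPKM in poor and 48.6 to 112 in rich libraries. Folr1 carries folate across the choroid epithelium and Folr2 belongs to macrophages, and the table does not separate them. Prlr, the prolactin receptor, stood at 0.0727 to 0.537 FPKM in poor and 6.13 to 31.1 in rich libraries. Cox8b, a subunit of cytochrome c oxidase, differed by 4.01 (SE 0.40) and Steap1, a metalloreductase, by 3.07 (SE 0.39). Enpp2 differed by 3.41 (SE 0.31), from a level of over 50 FPKM that the poor libraries shared.

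Ion and water transport genes made the longest called group. Of 26 genes 24 were compared and 13 were called higher, beside 0.598% of all loci. None was called lower, as over all loci, and the median was 1.69. Slc4a5, a sodium bicarbonate cotransporter of the apical membrane, stood at 0.215 FPKM in sham 1, 0.295 in sham 4, 0.666 in TBI 2 and 1.24 in sham 5. Its rich libraries had a lowest value of 26.5, a median of 37.1 and a highest of 120 FPKM, all above the poor ones. Slc4a2, a chloride bicarbonate exchanger of the basolateral membrane, differed by 2.18 (SE 0.32). Clic6 differed by 5.56 (SE 0.44) and Aqp1 by 4.87 (SE 0.64). Car14, a membrane carbonic anhydrase, differed by 1.79 (SE 0.26). Among calcium-permeable channels, Trpv4, an osmosensor, differed by 2.56 (SE 0.30) and Trpm3 by 1.59 (SE 0.28). Slc16a8, a lactate transporter shared with the retinal pigment epithelium, differed by 2.81 (SE 0.49), and Slc5a5, the sodium iodide symporter, by 2.58 (SE 0.46). Slco1a5, an organic anion transporter that also takes thyroid hormone, was listed at 0 in sham 1 and stood at 7.26 to 34.5 FPKM in rich libraries. Slc12a2, the chloride cotransporter that neurons and glia also use, differed by 0.53 (SE 0.21), was not called, and overlapped between the sets.

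Potassium channel genes showed that a gene name can cover more than 1 locus. One Kcnj13 locus, for the inward rectifier Kir7.1 of the apical membrane, stood at 35.3 to 121 FPKM in rich and 0.127 to 6.72 in poor libraries. A second Kcnj13 locus stood at 12.6 to 17.7 FPKM in all 10, with a difference of -0.02. Kcnq1, whose product pairs with Kcne2, also had 1 locus that followed Ttr, with 0.776 to 2.36 FPKM in rich and at most 0.105 in poor libraries, and 1 that did not, with a difference of -0.10. Both Kcne2 loci were called, at 4.64 (SE 0.69) and 3.13 (SE 0.51). In TBI 1 the first Kcne2 locus held 85.1 and the second 4.79 FPKM, while in the other 5 rich libraries the first ranged from 8.15 in TBI 3 up to the value of TBI 5, and the second was the higher in 4 of them. How the authors' assembly divided reads between these loci is not given in the sources used here.

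Epithelial identity and junction genes followed too. Of 17 genes 12 were compared and 6 were called higher, beside 0.598% of all loci. None was called lower, as over all loci, and the median was 1.91. Cldn2, the claudin of leaky epithelia that makes cation-permeable junctions, stood at 0.189 FPKM in sham 1, 0.740 in sham 4, 0.202 in TBI 2 and 1.43 in sham 5. Its rich libraries had a lowest value of 25.6, a median of 37.2 and a highest of 80.9 FPKM, a difference of 5.37 (SE 0.41). Msx1 and Lmx1a, homeodomain factors of the dorsal midline, differed by 2.72 (SE 0.37) and 2.40 (SE 0.36). Krt18, a keratin of simple epithelia, differed by 2.65 (SE 0.38), and the locus that names Krt8 with 2 other keratins by 2.03 (SE 0.28). Crb3, an apical polarity protein, differed by 2.58 (SE 0.34). Otx2, a homeodomain factor of the choroid plexus, was too low to be compared. It was listed at 0 in all 4 poor libraries and in sham 3, and at 0.0702 to 0.454 FPKM in the other 5 rich libraries.

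The counts of these lists moved when 1 library was left out, in most cases down. Without TBI 2 the secretion list had 7 called members, the transport list 3 and the identity list 1. Without sham 2 they had 9, 5 and 1, and without sham 1 the transport list had 8. Without TBI 1 the 3 lists had 12, 14 and 6, and without sham 4 they had 12, 10 and 5. Over all 10 such fits the secretion list ran from 7 to 12, the transport list from 3 to 14 and the identity list from 1 to 6.

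Within the 6 rich libraries the called loci were graded with Ttr. Pearson's r of log2 values with Ttr over those 6 libraries was positive for all 100 called loci other than Ttr, above 0.5 for 97, and had a median of 0.913, beside a median of -0.03 and a share of 24.8% above 0.5 over all loci. These correlations are descriptions, since the libraries share their tissue content across all loci. TBI 1 held the highest value of 87 of these 100 loci, sham 2 of 8, TBI 5 of 3, and TBI 3 and TBI 4 of 1 each. Of all loci compared, TBI 1 was the highest rich library for 28.1%. In 43 of the 100 loci the ratio to Ttr varied at most 2-fold among rich libraries. Glycam1, a mucin-like secreted protein, was the exception among the largest differences, with r = 0.115 over the 6 rich libraries. It stood at 9.24 FPKM in sham 3 and 28.7 in TBI 3, the rich libraries with the least Ttr, and at 18.8 in TBI 1, which had the most.

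The ratio to Ttr was near constant over all libraries for some genes and not for others. Sostdc1 stood at 3.78 to 6.85 FPKM per 1000 FPKM of Ttr in all 10 libraries, a 1.81-fold range while Ttr itself varied 933-fold. Tmem27, a renal and epithelial membrane protein, varied 3.45-fold and Kl 3.07-fold in this ratio, with Kl at 1.40 to 4.30 per 1000. For Clic6 the ratio was 3.52 to 5.73 in rich and 7.22 to 23.3 in poor libraries, and for Enpp2 26.4 to 48.6 in rich and 152 to 1470 in poor ones. Among loci with a single gene name and a mean of at least 1 FPKM, those whose log2 values were most like those of Ttr over the 10 libraries were Sostdc1 (Pearson r = 0.995), Clic6 (0.994), Kl (0.994), Cldn2 (0.989), Slc4a5 (0.989), Tmem72 (0.986), Tmem27 (0.985), Slco1a5 (0.985), F5 (0.982) and LOC362921 (0.979). In the same range lay the locus of Folr1 and Folr2 (0.987), a locus that names C1qtnf5 and Mfrp together (0.985) and a locus without a gene name (0.986).

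Among the poor libraries sham 5 had the most Ttr, but no single poor library led in every measure of this signal. Of the 100 called loci other than Ttr, sham 5 was the highest poor library for 47, sham 4 for 29, sham 1 for 16 and TBI 2 for 8, while over all loci the 4 libraries were highest for 26.4%, 21.5%, 29.0% and 23.1%. The median level of these loci, as a percentage of the highest library, was 4.51% in sham 4, 4.26% in sham 5, 4.04% in sham 1 and 2.74% in TBI 2. The mean centred log2 value of the secretion list was -1.31 in sham 4 and -1.65 in sham 5, that of the transport list -0.94 and -1.25, and that of the identity list -0.89 and -0.90. Sham 4 thus stood above sham 5 in all 3 lists. Sham 5 exceeded both sham 1 and TBI 2 at 65 of the 100 loci, against 36.5% of all loci.

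Sham 4 stood apart from the other poor libraries for a few epithelial genes. Aqp1 was at 4.11 FPKM there against 0.0445 to 0.985 in the other 3, and the Ttr-following Kcnj13 locus at 6.72 against 0.127 to 1.91, although Ttr was at 56.2. Igf2, a growth factor of choroid plexus and meninges, stood at 244 FPKM in sham 4 against 13.3 in sham 1, 13.2 in sham 5 and 10.6 in TBI 2. In rich libraries Igf2 had a lowest value of 89.9, a median of 143 and a highest of 445 FPKM, so that sham 4 overlapped them. Igfbp2, an IGF binding protein, stood at 137 in sham 4, 10.5 to 19.0 in the other poor libraries and 112 to 350 in rich ones. Slc13a4, a sulfate transporter, stood at 40.5 in sham 4, 2.79 to 5.06 in the other poor libraries and 20.9 to 92.8 in rich ones. None of these 3 genes was called over all libraries, and all 3 passed limma's adjusted p of 0.05 without sham 4. All 3 also passed over all 10 libraries in limma with a fibroblast score as second covariate, an alternative chosen after seeing the data. Within the rich libraries r with Ttr was 0.986 for Igf2, 0.978 for Igfbp2 and 0.970 for Slc13a4. Genes that were not called had values as high there, with 0.993 for Ptgds, 0.975 for Crabp2, 0.920 for Mgp and 0.910 for Col1a1. The 2 rich libraries with the most Ttr, TBI 1 and sham 2, were also the 2 rich libraries with the most meningeal signal.

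Meningeal and fibroblast genes marked sham 4, sham 2 and TBI 1. Of 25 such genes 20 were compared and 1 was called higher, beside 0.598% of all loci. None was called lower, as over all loci, and the median was 0.17. The mean centred log2 value of the list was 1.60 in TBI 1, 1.43 in sham 4 and 0.91 in sham 2, and between -1.02 and -0.20 in the other 7. The summed level ran from 528 to 2805 FPKM in rich and from 357 to 5113 in poor libraries, so the sets overlapped. Dcn, a proteoglycan of fibroblasts, was highest in TBI 1 at 56.4 FPKM and sham 4 at 44.5, and Col1a2 was listed at 0 in all 10 libraries. Ptgds, a prostaglandin synthase of the leptomeninges, stood at 4639 FPKM in sham 4, 2311 in sham 2 and 2255 in TBI 1, against 236 to 798 elsewhere. With the fibroblast score as covariate the differences of Igf2, Igfbp2 and Slc13a4 were 2.89, 3.10 and 2.55, against 3.01, 3.19 and 2.65 without it. The part of this tissue in their values in sham 4, and in that of Aqp1, was not tested. The called member, Col8a1, a short-chain collagen, stood at 0.061 to 1.30 FPKM in poor and 4.12 to 45.1 in rich libraries. It was at 1.30 in sham 4, where most of the list was high.

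**Figure D3:**
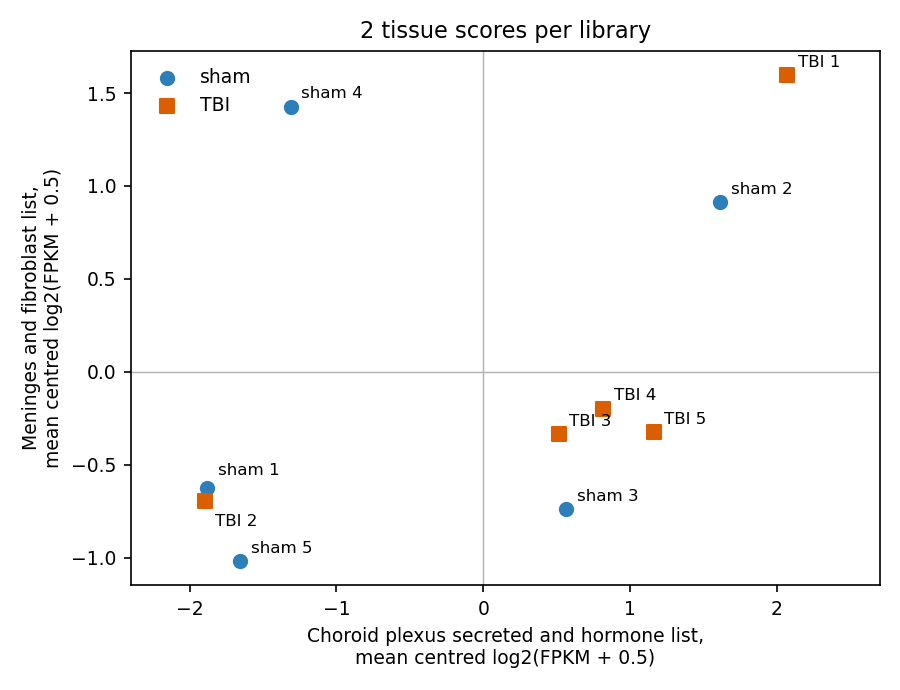
Mean centred log2(FPKM + 0.5) of the secretion and hormone list (x axis) and of the meninges and fibroblast list (y axis), 1 point per library, sham as circles and TBI as squares. The 4 poor libraries lie left of 0 and the 6 rich ones right of it, on a list that includes Ttr, which defined the split. Only TBI 1, sham 4 and sham 2 lie above 0 on the y axis, at 1.60, 1.43 and 0.91.

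Genes of motile cilia, which both ependyma and choroid epithelium carry, differed less. Of 30 genes 20 were compared, 19 of them differed by more than 0, and the median was 1.01. In 9 of them every rich library stood above every poor one, beside 2.63% of all loci. Of the 20 genes 2 were called higher and none lower, beside 0.598% of all loci called higher. The count ran from 0 to 7 over the alternatives. It was 0 without TBI 2, sham 1, sham 2, TBI 4 or TBI 5, without a filter, and within the sham libraries alone. It was 7 with the replicate block, 5 with log2 Ttr as covariate and 4 without the injury covariate. Foxj1, the transcription factor that drives motile ciliogenesis, stood at 4.77 FPKM in sham 1, 1.61 in sham 4, 6.56 in sham 5 and 3.53 in TBI 2. Its rich libraries had a lowest value of 12.7, a median of 17.3 and a highest of 24.2 FPKM, a difference of 2.07 (SE 0.37). Ccdc153 and Tmem212, markers of ependymal cells, did not follow the split. Ccdc153 stood at 0.815 to 4.90 FPKM in poor and 1.83 to 9.33 in rich libraries, highest in TBI 5 and lowest in sham 4. Tmem212 ran in the same order at its ends, from 0.350 in sham 4 to 7.38 in TBI 5. The list as a whole had its lowest mean centred value in sham 4, at -1.30, and its highest in TBI 5, at 0.84, with TBI 1 at 0.72. The part of ependymal content in the values of Foxj1 was not tested.

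Lists of other cell types held few called genes. None of the 18 endothelial, 13 mural, 17 microglial, 7 blood, 15 astrocyte, 23 excitatory, 15 inhibitory, 14 subfield, 18 neighbouring region, 15 immature neuron, 19 activity-induced or 11 housekeeping genes compared was called. These lists are short, and 0.598% of all loci were called, so a count of 0 says little about them. Their medians lay between -0.29 for inhibitory neurons and 0.44 for blood cells. Over all loci 2.63% had every rich library above every poor one, so a single such member says little about these lists either. That member was Igfbpl1, an IGF binding protein-like gene of immature neurons. It stood at 0.802 to 2.11 FPKM in poor and 3.38 to 13.4 in rich libraries, a difference of 1.77 (SE 0.37), and was not called. The medians of the endothelial, subfield and neighbouring region lists were within 0.1 of 0 and changed sign with the scaling of the libraries, as did that of the border macrophage list. Of 8 border macrophage genes the locus shared by Folr1 and Folr2 alone was called. Mrc1, the mannose receptor that marks these macrophages, was at 0.470 to 2.75 FPKM in rich and 0.527 to 5.36 in poor libraries. Of 20 oligodendrocyte genes only Tf was called. Tf, transferrin, which choroid epithelium also makes, stood at 266 to 313 FPKM in poor and 456 to 778 in rich libraries, a difference of 0.97 (SE 0.18), and the list's median was -0.12.

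Thyroid hormone and retinoid genes outside the epithelium, the pathway that transthyretin serves, did not move with Ttr as a group. Of 18 genes 17 were compared, none was called and the median was -0.15. Thrb, a thyroid hormone receptor, stood at 8.76 to 9.98 FPKM in poor and 5.59 to 8.51 in rich libraries, a difference of -0.37 (SE 0.13) that was not called. It was the only member of the list whose rich libraries all lay below the poor ones, an order found for 0.456% of all loci.

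**Figure D4:**
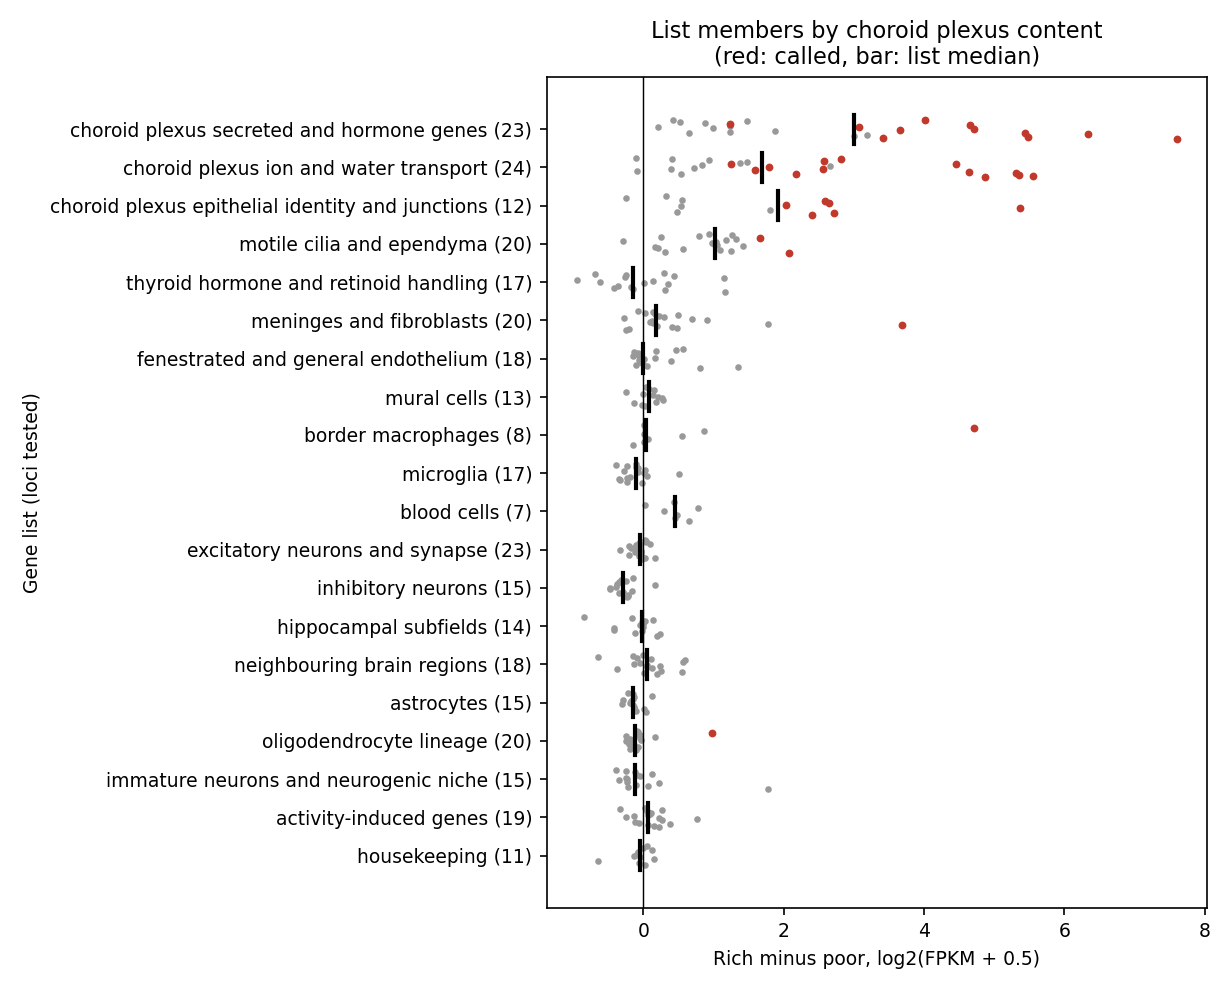
Rich minus poor difference on the log2(FPKM + 0.5) scale of each locus compared in the 20 gene lists (grey points, called loci in red), with a black bar at the list median. The 3 choroid plexus lists have medians of 3.01, 1.69 and 1.91 and motile cilia 1.01, and all other medians lie between -0.29 and 0.44.

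Of the 101 called loci 34 belonged to a list, and the following genes outside the lists were chosen after their values were seen. Ace, angiotensin-converting enzyme, stood at 4.30 to 6.12 FPKM in poor and 41.8 to 152 in rich libraries. Mdk, the growth factor midkine, stood at 23.2 to 42.2 in poor and 153 to 385 in rich ones. Pla2g5, a secreted phospholipase, stood at 0.287 to 0.604 in poor and 5.94 to 55.2 in rich ones. Mmp2, a matrix metalloproteinase, stood at 1.94 to 2.95 against 7.18 to 16. Adipoq, adiponectin, stood at up to 0.075 in poor and 3.02 to 7.88 in rich libraries, and Selp, P-selectin, at up to 0.192 against 1.20 to 5.55. The smallest called difference was that of Mansc1, a membrane protein, at 4.25 to 5.28 against 6.69 to 7.71 FPKM.

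No lower difference was called, though some genes did not overlap in that direction. Rcan2, a regulator of calcineurin, stood at 45.1 FPKM in sham 1, 54.0 in sham 4, 52.3 in sham 5 and 51.8 in TBI 2. Its rich libraries ran from 36.6 to 41.0, a difference of -0.39 (SE 0.08). Olfm3, an olfactomedin, differed by -0.50 (SE 0.13). Chrm4, a muscarinic receptor, stood at 8.95 in sham 1, 5.44 in TBI 2, 1.55 in sham 5 and 1.45 in sham 4, and at 0.406 to 1.21 FPKM in rich libraries. These 3 genes were chosen after their values were seen as well.

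Promoter sequence is shown for 3 called genes, as examples of what stands before genes that were high in the same libraries. Kl and Aqp1 are markers, and Pla2g5 was taken because it held 2 of the motifs. RefSeq's GRCr8 table held a promoter for 46 of the 73 called gene names. Each run is the 250 bases before the gene's start, 5′ to 3′ on the gene's strand, with matches to 4 searched motifs in capitals. The motifs, searched on both strands, were GGATTA of Otx2-type and TAATTA of Msx- and Lmx-type homeodomain factors, GTAAACA of forkhead factors and GTTGCC of RFX factors. Both homeodomain motifs share letters at their ends and may overlap.
Kl, chr12:5325753-5326002, plus strand, no match: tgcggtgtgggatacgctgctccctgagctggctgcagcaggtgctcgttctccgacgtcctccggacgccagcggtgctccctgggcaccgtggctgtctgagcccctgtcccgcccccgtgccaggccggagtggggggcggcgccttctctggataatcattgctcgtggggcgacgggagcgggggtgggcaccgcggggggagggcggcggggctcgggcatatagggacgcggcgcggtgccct
Aqp1, chr4:85812534-85812783, plus strand, 1 RFX match: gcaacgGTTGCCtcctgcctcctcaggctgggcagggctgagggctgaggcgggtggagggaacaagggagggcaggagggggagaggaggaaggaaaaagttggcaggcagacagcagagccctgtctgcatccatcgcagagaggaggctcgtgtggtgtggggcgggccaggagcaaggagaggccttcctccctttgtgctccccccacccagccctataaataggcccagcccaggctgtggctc
Pla2g5, chr5:156345923-156346172, minus strand, 2 homeodomain matches: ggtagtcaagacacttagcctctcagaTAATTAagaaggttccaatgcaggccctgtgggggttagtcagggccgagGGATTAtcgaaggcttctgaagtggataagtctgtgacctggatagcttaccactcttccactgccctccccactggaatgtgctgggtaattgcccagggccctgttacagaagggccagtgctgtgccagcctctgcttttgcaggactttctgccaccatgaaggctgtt
The Otx2-type motif was present in 5 of the 46 promoters (10.9%) and in 6.33% of all 27455 promoters of the same length. The Msx- and Lmx-type motif was present in 2 (4.35%) against 4.94%, the forkhead motif in 1 (2.17%) against 3.25% and the RFX motif in 3 (6.52%) against 9.90%. A match describes these letters and is not shown to be a site.

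Injury was then compared with content held as a covariate. No locus passed an adjusted p of 0.05 in limma (0%), and the smallest adjusted p was 1.00. An unadjusted p under 0.05 in limma was found for 296 loci, 146 higher and 150 lower after TBI. Chance alone would give about 844. Without the content term no locus passed in limma either, the smallest adjusted p was 0.781, and 477 loci had an unadjusted p under 0.05, also fewer than 844. For the typical (median) locus the 95% interval reached 0.36 to each side of the log2 difference. With content held, 53 of the 101 called loci were higher after TBI and the median was 0.01. Without the term all 101 were higher, with a median of 0.93, which follows from their choice. They were picked for a large content difference, the share of rich libraries was 0.4 higher in TBI than in sham, and leaving out the term adds 0.4 times the content difference to each locus by construction. Ttr defines the content term, so its difference with that term is a description and not a test. For Ttr the difference between TBI and sham was 2.83 without the term and -0.21 with it, with a 95% interval of -1.86 to 1.44. For Kl it was 2.13 without and -0.06 with it, and for Sostdc1 2.31 and -0.22. The Kcnj13 locus that followed Ttr went from 1.34 to -0.79 and Glycam1 from 2.32 to 0.46.

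**Figure D5:**
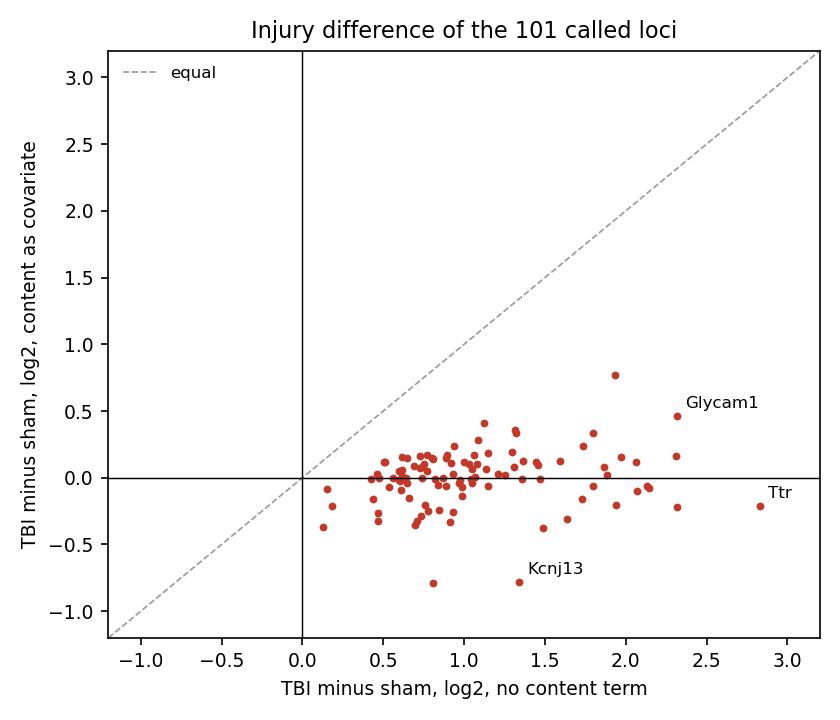
TBI minus sham difference (log2 scale) of the 101 called loci without a content term (x axis) and with content as covariate (y axis), with a dashed line where both are equal. All points lie right of 0, with a median of 0.93, as the choice of loci and the uneven groups fix, and scatter around 0 on the y axis, with a median of 0.01.

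The genes with the smallest p for injury beside content belonged to no choroid plexus list, and none passed the adjusted p of limma (1.00 for each). Complement component C3 stood at 1.49 to 3.08 FPKM in sham and at 2.53 to 13.9 after TBI, a difference of 1.41 (SE 0.41). Casp4, an inflammatory caspase, differed by 0.65 (SE 0.17), Kcnk13, a potassium leak channel, by 0.56 (SE 0.15), Odf3b by 0.52 (SE 0.12) and Piga, of GPI anchor synthesis, by 0.50 (SE 0.15). Plac9 was lowest among sham libraries in sham 4, at 4.22 FPKM, and stood at 25.3 to 43.2 in the other 4 and at 0.882 to 3.14 after TBI. Its difference was -3.72 (SE 0.56), and without sham 4 it was -4.03 with an adjusted p of 0.00936 in limma. Grm2, a presynaptic glutamate receptor, differed by -0.87 (SE 0.18), Ap1s2, an adaptor subunit, by -0.99 (SE 0.27) and Cldn5, the endothelial claudin, by -0.42 (SE 0.10).

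Whether the content difference itself depended on injury rests on TBI 2, the only poor TBI library. In the interaction of content and injury 1 of the 16889 loci passed limma's adjusted p of 0.05 (0.00592%). It names no gene, was listed at 0 in TBI 2 and stood at 3392 to 9385 FPKM in the other 9 libraries, with an interaction of 12.8 (adjusted p = 0.000548 in limma). No choroid plexus gene named here passed.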

How the data were processed

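Rat hippocampal RNA was selected for poly-A and sequenced on an Illumina instrument, as the labels' protocols state. The authors deposited 1 FPKM value and 1 status word per locus and library. The submitters' processing notes name Cuffdiff, Cufflinks, TopHat, TopHat2, Bowtie2, Bowtie and the rn5 build, with roles and versions not given in the sources used here. FPKM divides by a library total, so an abundant transcript such as Ttr can lower other values. The most abundant locus names no gene and ran from 18447.5 FPKM in sham 5 to 112216 in sham 1, above Ttr in every library. The rescaling to equal sums set aside Ttr but not this locus. The values are continuous and give back no whole reads. Depth is therefore unknown, and tests for counts were not used. A status other than OK stood at 81 loci, 0 of them among the called loci. Of the loci compared 4705 name no gene. The values carry no strand information.

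Libraries were split at 1000 FPKM of Ttr. limma 3.58.1 in R 4.3.3 (lmFit, eBayes with trend, two-sided) was run on log2(FPKM + 0.5) for loci with a mean of at least 0.5 FPKM, with content and injury as terms and Benjamini-Hochberg adjustment over all 16889 loci. On this scale low genes appear to change less than they do. A locus with a mean of at least 0.5 FPKM can pass through its rich libraries alone. The 20 lists hold 382 members, of which 357 matched a locus and 330 were compared, 2 through a synonym and 7 through a shared locus. List scores are means of centred log2 values. Genes are named where they had the 12 largest called differences with a mean of at least 1 FPKM, the 10 highest correlations with Ttr, the 4 largest differences of a list, a marker role, or the 5 smallest injury p in each direction, and others are said to be chosen later or are list members. The split, lists and genes were chosen with earlier results of these data known. Some genes that the rule names are not reported here. Fits were tested on simulated data. Alternatives were other pseudocounts, filters, scalings, covariates and library sets, and a replicate block.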

Additional observations from a re-analysis of the deposited data

Results flagged for a closer look

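The search covered genes of the naming rules, with a few left out, and genes chosen after their values were seen, not all of them reported here. For each gene, Dixon's criterion sought 1 library far from the other 4 among the 5 sham and among the 5 TBI libraries. It was met by 38 of 274 gene and group pairs. Chance alone flags about 1 in 20 such groups, and genes of 1 tissue are not independent.

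TBI 1, the library with the most Ttr, held 17 of them. Matrix and meningeal genes stood apart there: Dcn was at 56.4 FPKM against 15.9 to 23.5 in the other TBI libraries, Col1a1 at 30.5 against 2.39 to 3.54, Mgp at 129 against 17.9 to 39.1 and Ptgds at 2255 against 236 to 798. Col8a1 was at 45.1 against 0.185 to 11.3 and Crabp2, a retinoic acid binding protein, at 17.1 against 1.96 to 6.20. Smooth muscle genes were also high, with Acta2 at 81.0 against 9.76 to 12.5, Tagln at 112 against 15.8 to 19.8 and Myh11 at 16.6 against 2.7 to 3.31. Of endothelial genes, Esm1 was at 32.9 against 0.144 to 0.980, Plvap, of fenestrated vessels, at 10.6 against 3.31 to 4.32 and Ocln at 10.6 against 3.51 to 5.38. Of immune genes, Cd74 was at 60.2 against 7.60 to 20.7, Mrc1 at 2.75 against 0.799 to 1.17 and Olfml3 at 10.4 against 2.32 to 3.0. Pla2g5 was at 55.2 against 0.519 to 13.9. Mpped1, of CA1 neurons, was low at 40.4 against 68.2 to 75.4.

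Sham 1 held 8. Crabp1 was at 8.88 FPKM against 1.98 to 3.03 in the other sham libraries, Rxrg at 10.3 against 0.754 to 2.06, Trhr at 5.23 against 0.597 to 1.10 and Chrm4 at 8.95 against 0.406 to 1.55. Cck was at 361 against 180 to 222, Lhx6 at 7.39 against 3.17 to 3.56, Fezf2 at 26.8 against 13.1 to 16.5 and Ywhaz at 847 against 683 to 722. Sham 4 held 3, with Myh11 at 21.5 against 2.91 to 8.22, Mrc1 at 5.36 against 0.470 to 1.53 and Stmn1 at 247 against 178 to 194.

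The remaining flags were scattered. In sham 2 Slc16a8 was at 9.02 against 0.101 to 2.18 and Rpl13a at 49.2 against 29.9 to 34.7. In sham 3 Slc12a2 was at 23.0 against 16.6 to 18.1, and in sham 5 Ppia was at 9.44 against 1.60 to 3.72. In TBI 2 Chrm4 was at 5.44 against 0.532 to 1.05 and Rcan2 at 51.8 against 37.1 to 41.0. In TBI 3 Fcrls was at 17.9 against 0.847 to 3.25 and Hbb-b1 at 20.6 against 7.05 to 10.7. In TBI 4 Kcnk13 was low at 0.955 against 1.33 to 1.45, and in TBI 5 Ccdc153 was at 9.33 against 2.44 to 3.74.

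The content difference of 1 locus without a gene name differed between injury groups, with an interaction of 12.8 on the log2 scale (adjusted p = 0.000548 in limma). It rests on TBI 2, where the locus is listed at 0.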

How the results depend on the processing

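All 101 loci kept a difference above 0 in each of the 23 alternatives in which they were compared. So did the 42 called genes that were named by the rules or chosen after their values were seen, at 0.537 or more. Where only the set of libraries or the pseudocount changed, that sign was fixed in advance. At these loci every rich library stood above every poor one. The number called higher was 172 with log2 Ttr as covariate, 181 without the injury covariate and 13 in sham alone. It ran from 19 to 145 over the fits that leave out 1 library. It was 183 with a fibroblast score (Dcn, Lum, Col1a1, Col3a1) as second covariate, which was chosen after seeing the data. Calls in TBI alone are counted in neither direction, since the lone poor library there is assumed to vary like the rich ones. The number called lower was 2 with log2 Ttr, 2 without the injury covariate, 1 in sham alone, 1 with the fibroblast score and 0 to 1 with 1 library left out. The cause was not tested. Pseudocounts, filters and scalings gave 79 to 119 higher and 0 lower.

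For injury, 0 to 1 loci were called with 1 library left out and 0 otherwise. Ttr's injury difference of -0.21 is a description, because Ttr defines the content term. It was 2.83 without that term and -0.69 to 0.208 with 1 library left out, above 0 without sham 2 (0.208) and without sham 5 (0.155). The interaction called 2 loci at a pseudocount of 0.1, 2 without a filter, 2 after rescaling to equal sums, and 1 to 3 with 1 library left out. Without TBI 2 it could not be fitted.

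With the replicate block 105 loci were higher, 71 of them among the 101, and 0 were called for injury. Libraries with the same number did not deviate together (r of 0.01, -0.31, 0.06, -0.07 and 0.32). Of the sham libraries only sham 5 correlated best with the TBI library of its own number. TBI 5 in turn correlated best with sham 3, at 0.33 against 0.315 with sham 5. Depth is unknown, so what low FPKM values can resolve was not assessed.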
